A study of Mus musculus with 6 samples.

Results

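Box C/D small nucleolar RNAs (snoRNAs) are short RNAs of the nucleolus, and 31 of the 19937 genes measured on these arrays belong to the class. They were chosen as every gene whose symbol is Snord followed by a number and which is the only gene named for its probe set, a group of probes read as 1 value. The probe set with the highest mean was kept for the 2 genes that had a pair of them. The class itself was selected on how much the log2 intensities of its members varied between these tumours, so the spread between tumours and the position of single tumours are given here as a description, without a test. A further 33 probe sets that name a Snord gene together with other genes were left out by this rule, 24 of them for Snord116-like copies.

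The 6 samples were whole mammary tumours, each from a different female FVBN mouse carrying the MMTV-PyMT transgene, which expresses middle T antigen of polyoma virus from a promoter active in mammary epithelium. Of these mice, 3 received the vehicle DMSO and 3 received TMP195, an inhibitor of class IIa histone deacetylases, at 50 mg/kg once a day by injection into the abdomen. The labels give the age as 75 to 90 days, and the dosing as 5 days in one text and 2 weeks in another. All 6 mice carried the transgene, so tumours without it are not part of the comparison. Values are log2 array intensities, and the number of tumours per group, 3, limits the precision of every comparison. Probe sets differ in how strongly they bind, so levels are compared between tumours for the same gene and not between genes. Values of a group are listed in the order of its tumours 1, 2 and 3.

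Box C/D snoRNAs pair with ribosomal RNA and direct the methyltransferase fibrillarin (Fbl) to methylate a ribose at the paired site, and a few of them act in cutting the ribosomal RNA precursor. In mammals most are encoded in introns of host genes, many of which make ribosomal proteins or long noncoding RNAs. The snoRNA is freed from the spliced intron after debranching and trimming, and is protected by the proteins Fbl, Nop56, Nop58 and Snu13. A snoRNA can therefore be present at a level that does not follow that of its spliced host transcript. The arrays do not separate a mature snoRNA from unspliced host RNA that contains it.

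Of the 31 members, 30 lie within a host gene in the RefSeq annotation, and they share 23 hosts. The host is a ribosomal protein gene for 13 members, another protein-coding gene for 10 and a long noncoding RNA gene for 7. Snord118, which encodes U8, a snoRNA for large-subunit ribosomal RNA processing made from its own promoter, is the remaining one. The annotated RNAs are 45 to 148 nucleotides long, with a median of 68.

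Many snoRNA hosts start transcription in an unbroken stretch of pyrimidines, the feature that defines the terminal oligopyrimidine class of genes, and starts of 5 long noncoding hosts are shown here because each has a run of pyrimidines at or close to it. Each sequence runs 5′ to 3′ over 80 bases, from 60 bases before the annotated start to 20 bases from it onward, in RefSeq for build GRCm38.p6, and the capitals mark the longest run of C and T letters that reaches within 5 bases of the start. In Snhg1 that run begins 4 bases after the start and does not include it.
Snhg1, host of Snord22, chr19:8723427-8723506, plus strand: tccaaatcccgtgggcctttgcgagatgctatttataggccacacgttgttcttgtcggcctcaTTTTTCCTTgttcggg
2410006H16Rik, host of Snord49a and Snord49b, chr11:62602817-62602896, plus strand: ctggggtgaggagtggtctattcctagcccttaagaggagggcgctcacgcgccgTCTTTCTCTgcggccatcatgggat
Gas5, host of Snord47, chr1:161035106-161035185, plus strand: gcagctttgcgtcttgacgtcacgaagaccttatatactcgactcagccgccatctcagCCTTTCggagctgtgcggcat
1110038B12Rik, host of Snord52, chr17:34952449-34952528, minus strand: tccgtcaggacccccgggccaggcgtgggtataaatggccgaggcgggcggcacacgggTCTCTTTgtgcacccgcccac
Gm36220, host of Snord104, chr11:106500855-106500934, plus strand: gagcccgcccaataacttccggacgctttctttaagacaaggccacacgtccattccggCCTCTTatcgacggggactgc

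A run of at least 6 letters, each C or T, read on the transcribed strand and reaching within 5 bases of the start, was found at 10 of the 18 annotated starts of 16 hosts, and at 6 of the 7 starts of long noncoding ones. At the remaining long noncoding start, another start of Gas5 that is not shown above, the longest run was 3 letters. Both starts of 1110038B12Rik carry an identical run of 7 letters, which is counted at each. By host, 9 of the 16 had a run of at least 6 letters. The other hosts, Snhg6 among them, had no start in the set that was searched. The same run was found at 6631 of 32851 RefSeq starts, or 20.2%. The match describes letters only, and no measurement here bears on how these starts are used.

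Across the 6 tumours the members varied largely together. Vehicle tumour 1 held the lowest value of 24 of the 31 members, against 16% of all genes. TMP195 tumour 2 held the highest value of 20 members, against 25.4% of all genes. It also held the lowest value of 22.4% of all genes, and of 1 member. Set against the median of the other 5 tumours, 28 members were below it in vehicle tumour 1 (49.6% of all genes) and 27 above it in TMP195 tumour 2 (51.3% of all genes). On this measure members had a median of -0.51 in vehicle tumour 1 and 0.35 in TMP195 tumour 2 on the log2 scale. The corresponding medians were -0.04 in vehicle tumours 2 and 3, 0.21 in TMP195 tumour 1 and -0.10 in TMP195 tumour 3. Below, a tumour said to lie above or below the others is set against the median of the other 5. The mean log2 intensity over the 31 members was 7.83, 8.34 and 8.35 under vehicle and 8.48, 8.66 and 8.29 under TMP195. The groups therefore overlapped, since TMP195 tumour 3 lay below vehicle tumours 2 and 3.

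**Figure D1:**
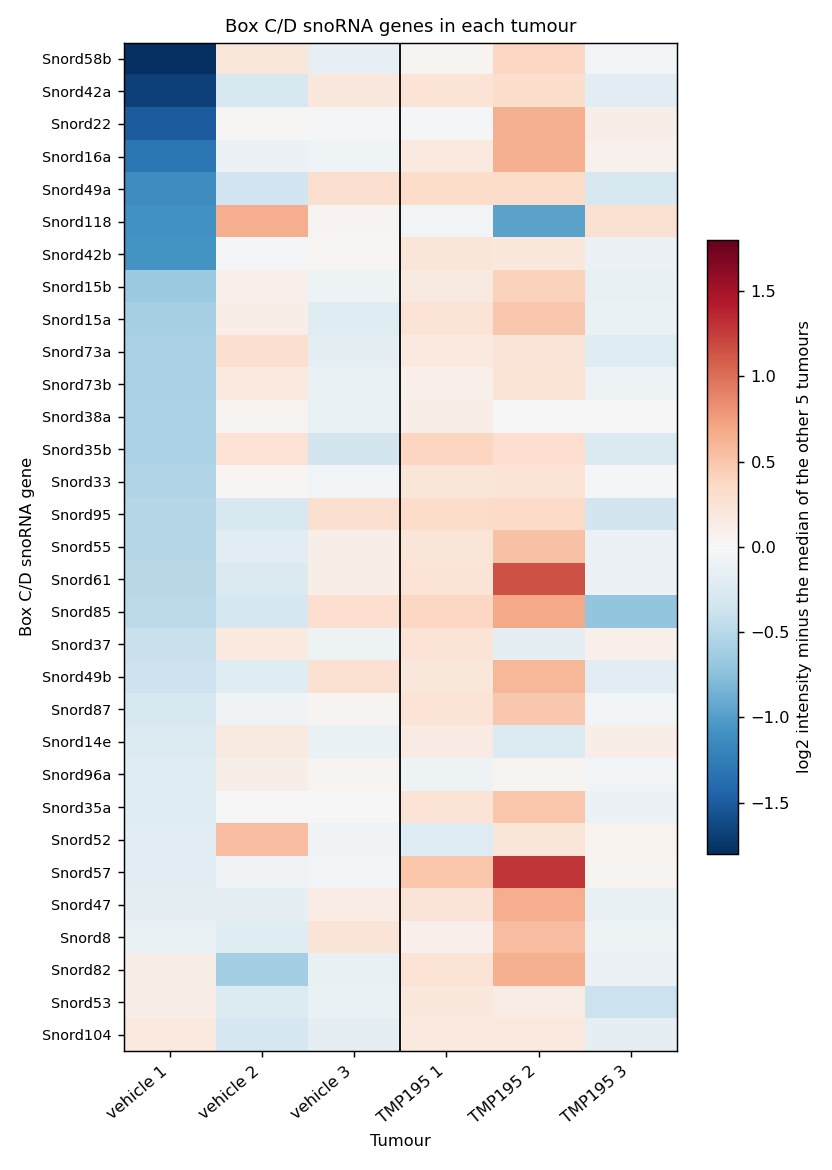
Heat map of the 31 box C/D snoRNA genes, 1 row per gene, in the 6 tumours, 1 column per tumour, where colour is log2 intensity minus the median of the other 5 tumours. The column of vehicle tumour 1 is below that median for 28 genes and the column of TMP195 tumour 2 is above it for 27.

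The standard deviation (SD) of log2 intensity over the 6 tumours had a median of 0.27 among members, with a range of 0.10 to 0.78. Over all genes the median SD was 0.15, and 16.9% of all genes had an SD above the members' median. All 31 members lay above the 30th percentile of mean intensity, between 33.8 and 99.3 with a median of 89.2, and among all genes above that percentile the median SD was 0.14. The 10 members with the largest SD were Snord58b, Snord22, Snord42a, Snord118, Snord16a, Snord57, Snord61, Snord42b, Snord49a and Snord85.

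The members that stood out most in vehicle tumour 1 were low there and, apart from Snord118, closer together in the other 5 tumours. In that tumour 7 members were more than 2-fold below the median of the others, and 0.181% of all genes were. Of these 7, 4 sit in ribosomal protein genes, 2 in long noncoding hosts and 1, Snord118, has no host. Snord58b, which guides methylation of large-subunit ribosomal RNA and lies in Rpl17, read 6.18, 8.13 and 7.83 under vehicle and 7.97, 8.30 and 7.92 under TMP195. It was 3.48-fold below the other tumours in vehicle tumour 1, and the remaining 5 values lay between 7.83 and 8.30. A second probe set for Snord58b read 5.99, 7.98 and 7.68 under vehicle and 7.81, 8.13 and 7.81 under TMP195, the same order of low and high tumours. Whether these 2 probe sets share probes was not tested, so the second is not counted as a separate measurement.

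Snord42a and Snord42b lie in the ribosomal protein gene Rpl23a and guide methylation of small-subunit ribosomal RNA. Snord42a read 7.98, 9.38 and 9.66 under vehicle and 9.72, 9.80 and 9.48 under TMP195. Snord42b read 7.48, 8.51 and 8.55 under vehicle and 8.73, 8.70 and 8.45 under TMP195. Both were low in vehicle tumour 1, by 3.21-fold and 2.10-fold against the others, and both groups overlapped, since TMP195 tumour 3 lay below vehicle tumour 3.

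Snord22 encodes U22, which is needed for maturation of small-subunit ribosomal RNA, and lies in the long noncoding host Snhg1. It read 8.60, 10.10 and 10.07 under vehicle and 10.08, 10.72 and 10.19 under TMP195. Vehicle tumour 1 was 2.82-fold low, while TMP195 tumour 2 was the highest, and TMP195 tumour 1 fell between the other vehicle tumours. Snord16a, in Rpl4, read 9.07, 10.26 and 10.29 under vehicle and 10.47, 10.93 and 10.37 under TMP195. For this gene the groups did not overlap, and vehicle tumour 1 was 2.46-fold below the others. Snord49a, in the long noncoding host 2410006H16Rik, read 8.54, 9.32 and 9.67 under vehicle and 9.70, 9.70 and 9.37 under TMP195.

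**Figure D2:**
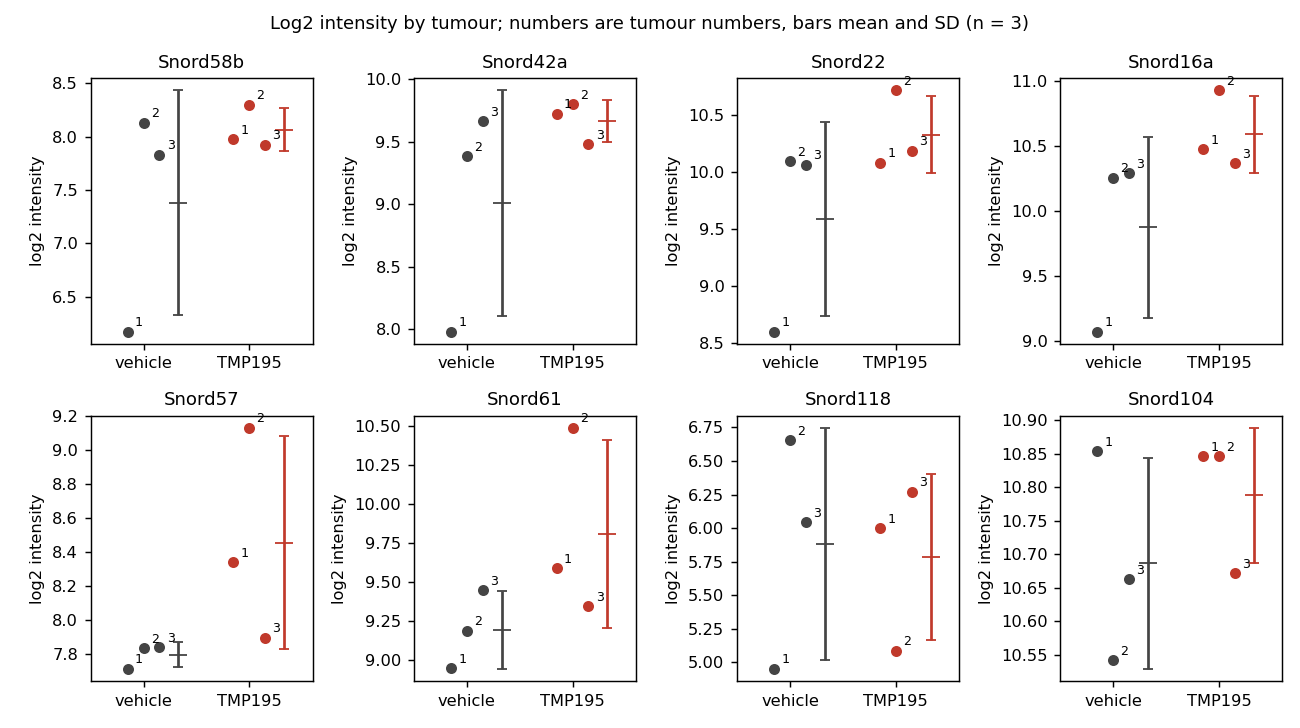
Log2 intensity of 8 members in each tumour (points, numbered by tumour), with vehicle in grey, TMP195 in red, and bars for the group mean and SD (n = 3). Each panel has its own axis range. The lowest points of Snord58b, Snord42a, Snord22, Snord16a and Snord118 are vehicle tumour 1, the highest points of Snord57 and Snord61 are TMP195 tumour 2, and Snord104 differs little between tumours.

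A pair of members stood out in TMP195 tumour 2 instead, where only Snord57 and Snord61 were more than 2-fold above the median of the others, as were 1.51% of all genes. Snord57 lies in Nop56, the gene of a core protein of the same particles. It read 7.71, 7.83 and 7.84 under vehicle and 8.34, 9.13 and 7.89 under TMP195. TMP195 tumour 2 was 2.45-fold above the others, TMP195 tumour 1 was next, and TMP195 tumour 3 was close to the vehicle tumours, so that the groups did not overlap but came near. Snord61 lies in Rbmx, the gene of a nuclear RNA-binding protein. It read 8.94, 9.19 and 9.44 under vehicle and 9.59, 10.49 and 9.34 under TMP195, 2.21-fold high in TMP195 tumour 2 with overlapping groups.

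Snord118 was low in both of the tumours that stand at opposite ends for most members. Its log2 intensity read 4.95, 6.66 and 6.04 under vehicle and 6.0, 5.09 and 6.27 under TMP195. It was low in vehicle tumour 1, as most members were, but also low in TMP195 tumour 2, where 27 members were above the median of the others. The array lists 2 probe sets for Snord118 with identical values in every tumour, which count as 1 measurement. Snord85 had the lowest mean intensity percentile and read 4.02, 4.19 and 4.50 under vehicle and 4.56, 4.87 and 3.79 under TMP195, with TMP195 tumours 2 and 3 at opposite ends.

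The steadiest member was Snord96a, in Rack1, with an SD of 0.10. The 3 probe sets with the highest mean belonged to Snord49b, Snord104 and Snord55. Snord49b read 10.76, 10.91 and 11.20 under vehicle and 11.13, 11.53 and 10.93 under TMP195, highest in TMP195 tumour 2. Snord104 read 10.85, 10.54 and 10.66 under vehicle and 10.85, 10.85 and 10.67 under TMP195. It was 1 of 3 members, with Snord53 and Snord82, that lay above the median of the other tumours in vehicle tumour 1. Of these, only Snord104 was highest there. Snord55 read 10.23, 10.54 and 10.74 under vehicle and 10.85, 11.16 and 10.64 under TMP195.

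Members in all 3 classes of host were low at the median in vehicle tumour 1 and high in TMP195 tumour 2. Members in ribosomal protein genes had a median deviation of -0.59 in vehicle tumour 1, where 13 of 13 were below the others, and of 0.32 in TMP195 tumour 2, where 12 of 13 were above. Members in other protein-coding genes had medians of -0.23 and 0.45, with 8 of 10 below and 8 of 10 above. Members in long noncoding hosts had medians of -0.29 and 0.49, with 6 of 7 below and 7 of 7 above. The classes were not tested against each other. Within the members' span of 45 to 148 nucleotides, length separated them little. The 16 at or under the median length had medians of -0.49 and 0.34, and the 15 longer ones -0.54 and 0.41. All of these RNAs are short, so the split cannot show whether short RNA was recovered equally from each tumour, which was not tested.

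A gene that hosts 2 measured snoRNAs allows the pair to be followed together, and 7 hosts did so. Pearson correlations over the 6 tumours, which share arrays and their scaling, are given as descriptions. Snord42a and Snord42b in Rpl23a had an r of 0.99, Snord15a and Snord15b in Rps3 0.98, and Snord73a and Snord73b in Rps3a1 0.97. These 3 pairs still had an r of 0.84, 0.96 and 0.90 over the 5 tumours without vehicle tumour 1. Snord33 and Snord35a, in Rpl13a, the host of snoRNAs known from work on cell death under lipid overload, had an r of 0.82, and 0.95 without vehicle tumour 1. Snord49a and Snord49b had 0.78 and 0.82. Snord95 and Snord96a, in Rack1, were less alike, with 0.49 and -0.29.

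Over all 465 pairs of members the median r was 0.66, and 33.1% of pairs were above 0.8. Pairs drawn from all genes had a median of 0.01 and 4.12% above 0.8. The members' median was 0.60 without vehicle tumour 1 and 0.43 without vehicle tumour 1 and TMP195 tumour 2. Pairs that share a host had a median of 0.82 and pairs that do not had 0.65, so members in different hosts also moved together. Each of these correlations rests on at most 6 tumours. The class was selected for varying between these same tumours, so the contrast with pairs of all genes is a description only.

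The measured host transcripts varied less than the snoRNAs inside them, to very different degrees. Of the 23 hosts, 12 were measured by a probe set of their own, and they hold 15 members. The member's SD was above its host's in 15 of 15, by 1.58 times for Snord73a in Rps3a1 up to 20.4 times for Snord16a in Rpl4, with a median of 4.32 times. The median SD was 0.33 for members and 0.084 for hosts. These come from different probe sets, and the hosts had a median intensity percentile of 98.9, against 89.2 for all members. In vehicle tumour 1 the hosts' deviations lay between -0.16 and 0.03, with a median of -0.06, where their members had a median of -0.50. In TMP195 tumour 2 the hosts had a median of -0.08 and 8 of 12 were below the median of the others. Of the 15 members, 13 were above it. For 9 members the snoRNA was above and the host below in that tumour.

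Rpl4, the host of Snord16a, read 11.77, 11.80 and 11.80 under vehicle and 11.79, 11.72 and 11.76 under TMP195. Rpl23a, the host of Snord42a and Snord42b, read 11.60, 11.75 and 11.76 under vehicle and 11.72, 11.53 and 11.69 under TMP195. Rpl4 differed little between tumours. Rpl23a was lowest in TMP195 tumour 2, where both of its snoRNAs were above the median of the others, though Snord42b was highest in TMP195 tumour 1. Nop56, the host of Snord57, read 9.49, 9.84 and 9.58 under vehicle and 9.54, 9.71 and 9.62 under TMP195. Rbmx, the host of Snord61, read 9.13, 9.05 and 9.19 under vehicle and 9.28, 9.54 and 9.26 under TMP195. Rbmx and Gas5 were the hosts that lay highest in TMP195 tumour 2, at 0.34 and 0.25 log2 above the median of the others. Their members Snord61 and Snord47 were 1.15 and 0.66 above theirs.

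**Figure D3:**
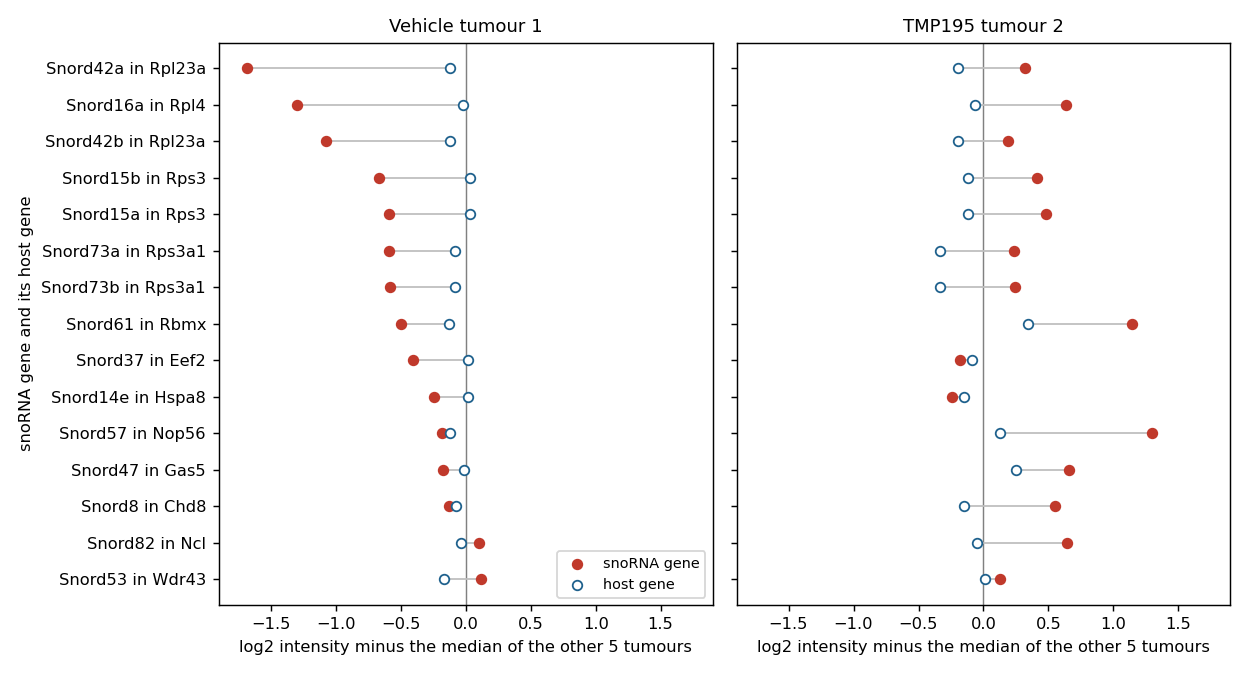
Log2 intensity minus the median of the other 5 tumours for 15 snoRNA genes (filled points) and their hosts (open points), in vehicle tumour 1 on the left and TMP195 tumour 2 on the right, with a grey line joining each pair. Hosts stay between -0.16 and 0.03 in vehicle tumour 1 and between -0.33 and 0.34 in TMP195 tumour 2, while snoRNA genes reach -1.68 and 1.29.

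For the comparison of TMP195 with vehicle, no member passed an adjusted p of 0.05 in limma with Benjamini-Hochberg adjustment over all genes, and 0% of all genes did. At an unadjusted p under 0.05, 0 members were called, where 1.18% of all genes were called higher and 1.34% lower. The mean was higher under TMP195 for 29 members, and for 49.5% of all genes. It was lower for the other 2, Snord118 and Snord52, and for 50.5% of all genes. The members' differences had a median of 0.27 on the log2 scale and ran from -0.10 to 0.74, while the median over all genes was -0.0014. The moderated 95% interval of every member included 0, with a median half-width of 0.43. The members moved together within tumours, so their shared sign is not a count of independent observations.

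The groups did not overlap for 2 members, Snord57 and Snord16a, both higher under TMP195, as were 3.47% of all genes, and no member lay wholly lower, as 3.21% did. Both also differed by at least 1.5-fold, as did 0.0953% of all genes in that direction and 0.166% in the other. Snord57 had a mean of 7.79 ± 0.07 (SD, n = 3) in vehicle and 8.46 ± 0.63 (SD, n = 3) in TMP195 tumours. Its difference was 0.66 ± 0.29 (SE), with a 95% interval of -0.02 to 1.34 and an unadjusted p of 0.0556 in limma, the smallest among the members. Snord16a had 9.87 ± 0.69 (SD, n = 3) and 10.59 ± 0.30 (SD, n = 3), a difference of 0.72 ± 0.34 (SE) and an interval of -0.09 to 1.52. Neither difference stood apart from the spread between tumours. Without TMP195 tumour 2 the difference of Snord57 was 0.32. That of Snord16a was 0.32 without vehicle tumour 1, 0.55 without TMP195 tumour 2 and 0.15 without both.

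The largest difference, 0.74 ± 0.41 (SE) for Snord22, had an interval of -0.23 to 1.72 and was 0.25 without vehicle tumour 1 and 0.05 without those 2 tumours. Snord58b differed by 0.69 ± 0.48 (SE), by 0.08 without vehicle tumour 1 and by 1.06 without vehicle tumour 2. Snord42a differed by 0.66 ± 0.41 (SE), and by 0.15 without vehicle tumour 1. Snord61 differed by 0.61 ± 0.30 (SE), and by 0.27 without TMP195 tumour 2. Snord82, which lies in the nucleolin gene Ncl and was not low in vehicle tumour 1, differed by 0.44 ± 0.21 (SE) and by 0.39 without both tumours. It differed by 0.26 without vehicle tumour 2, its lowest tumour, and by 0.26 without TMP195 tumour 2, its highest. Over all members the median difference was 0.13 without vehicle tumour 1 and 0.42 without TMP195 tumour 3. It was 0.06 without vehicle tumour 1 and TMP195 tumour 2, and 21 of the 31 then had the higher mean under TMP195. These 2 tumours were picked from the same values, as the lowest vehicle and the highest TMP195 tumour for most members. A smaller median difference was therefore built into leaving both out.

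**Figure D4:**
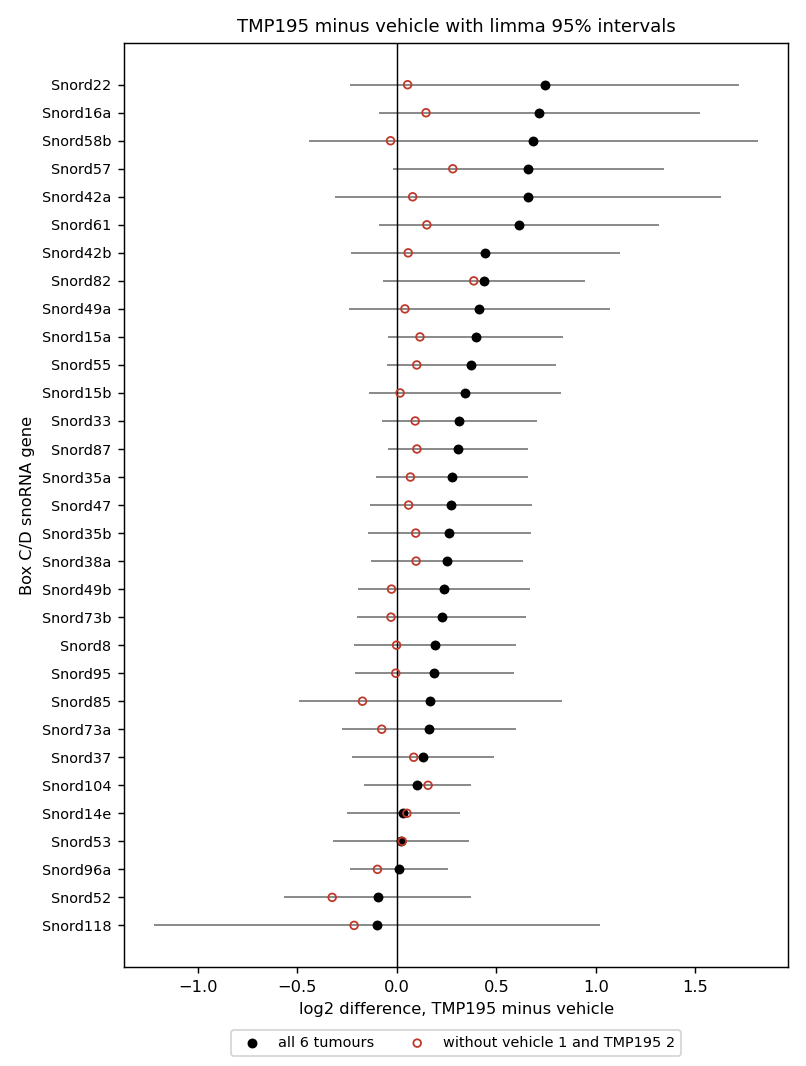
TMP195 minus vehicle difference in log2 intensity for each of the 31 members, with points for the estimate, lines for the moderated 95% interval in limma and open marks for the difference without vehicle tumour 1 and TMP195 tumour 2. All 31 intervals cross 0, and the median moves from 0.27 to 0.06 without those 2 tumours. They were picked from the same values as the low vehicle and the high TMP195 tumour, so a smaller median was built in.

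The protein genes of the box C/D particle had no shared direction that held without vehicle tumour 2, where the proliferation genes were also high. All 4 measured core genes had a lower mean under TMP195, with 0 of 4 called by limma after adjustment, and Fbl, Nop56 and Snu13 had the higher one without vehicle tumour 2 (0.03, 0.08 and 0.0036). Fbl, the methyltransferase, differed by -0.12 ± 0.18 (SE), Nop58, a scaffold protein, by -0.08 ± 0.10 (SE), Nop56 by -0.02 ± 0.12 (SE) and Snu13, which binds the box C/D fold first, by -0.09 ± 0.11 (SE). Of 11 assembly factor genes 9 had the lower mean and 0 were called, where 50.5% of all genes had the lower mean, and the 4 with the smallest p were Pih1d1, Coil, Nolc1 and Ruvbl2. Debranching and exosome genes, which free and trim the intron-encoded RNA, had the lower mean in 9 of 12, with a median difference of -0.05 and 0 called. Genes of RNA polymerase I and early ribosome assembly had it in 15 of 24, again with 0 called. Vehicle tumour 2 held the highest value of 9 of the 11 assembly, 11 of the 12 debranching and exosome and 17 of the 24 polymerase and ribosome assembly genes. It did so for 24.2% of all genes. Without vehicle tumour 2 the lower mean was found for 6, 4 and 10 genes of these lists, and for 47.5% of all genes. All 14 proliferation genes still had the lower mean, while 30 of the 31 snoRNA genes then had the higher one.

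Other short nuclear and cytoplasmic RNAs were read beside the members. The 20 genes of box H/ACA snoRNAs, the sister class that guides pseudouridine formation, had a median deviation of -0.11 in vehicle tumour 1, with 17 below the others, and of 0.29 in TMP195 tumour 2, with 17 above. The Y RNA gene Rny1 read 7.02, 8.12 and 7.86 under vehicle and 8.06, 8.83 and 7.75 under TMP195. Rny3 read 11.02, 11.79 and 11.86 under vehicle and 11.95, 11.99 and 11.76 under TMP195. Both were lowest in vehicle tumour 1 and highest in TMP195 tumour 2, as 24 and 20 of the 31 members were. The list of 9 small RNA genes that holds them had medians of 0.04 and 0.20. In vehicle tumour 1, 4 of these 9 were below the others and 5 above, among the latter Scarna13 (0.40) and Rpph1 (0.34). Of the 291 microRNA genes, 209 were above the others in vehicle tumour 1, with a median of 0.09, and 134 in TMP195 tumour 2, with a median of -0.02. Their probe sets were dim, with 182 at or below the 30th percentile of intensity, where no member lay.

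Markers of other cells and of proliferation also differed between these tumours. The 14 measured proliferation genes had a median deviation of -0.59 in TMP195 tumour 2, where 0 of 14 were above the others, and of 0.54 in vehicle tumour 2. The 61 ribosomal protein genes had a median of -0.14 in TMP195 tumour 2, where 6 were above. The mean log2 intensity of 11 adipocyte markers read 6.85, 5.86 and 8.36 under vehicle and 7.62, 4.79 and 5.82 under TMP195. Skeletal muscle markers had a mean of 7.94 in vehicle tumour 2, against 4.60 to 5.05 in the other 5. The part of these differences in the snoRNA values was not tested, and in whole tumours fewer cells of a type and less RNA per cell cannot be told apart. Mammary epithelial markers, which check the labelled tissue, had means of 10.39 to 10.50 in all 6 tumours. Single markers differed more: Krt19 was lowest in vehicle tumour 1 (9.39) and highest in TMP195 tumour 2 (10.52), while Cldn4 and Elf5 were lowest in TMP195 tumour 2 (8.28 and 10.70).

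**Figure D5:**
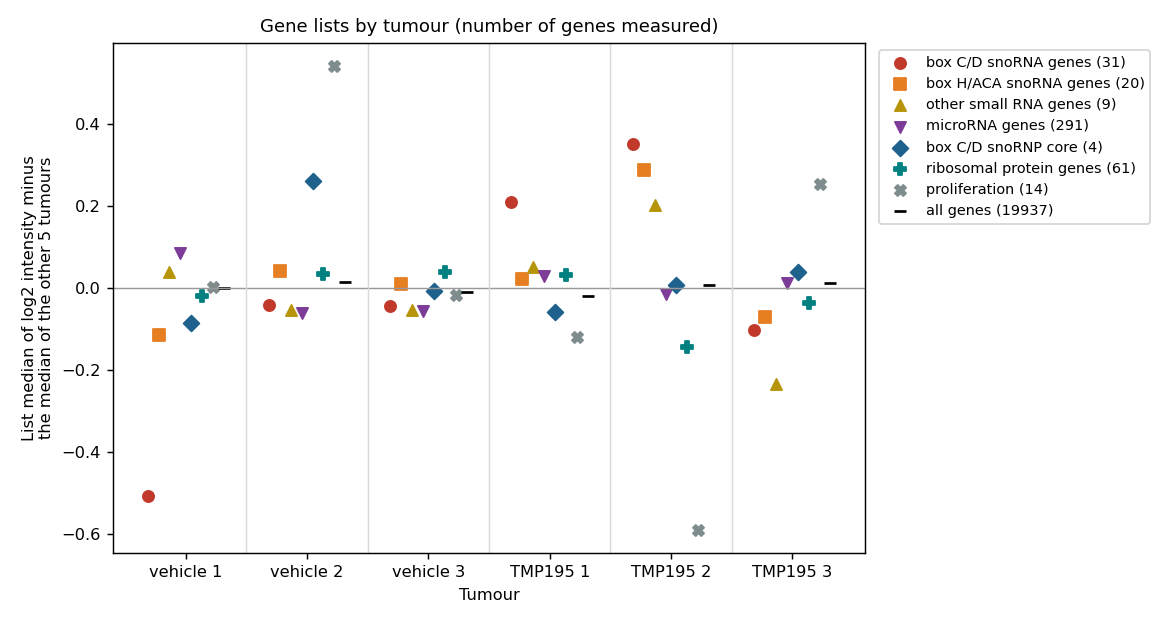
Median over each gene list of log2 intensity minus the median of the other 5 tumours, for 8 lists, with the number of measured genes in the legend. Box C/D snoRNA genes have the lowest median in vehicle tumour 1 (-0.51) and the highest in TMP195 tumour 2 (0.35), where proliferation genes are at -0.59.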

How the data were processed

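RNA was isolated from whole tumours on RNeasy spin columns with DNase, then biotin-labelled, as the labels' protocols record. How well such columns kept RNAs of the members' length was not tested. The authors deposited array intensity values for which the submitters' processing notes name RMA and Affymetrix Power Tools, without versions. The scale is not stated. It was taken as linear because column medians were 44.8 to 46.4. RMA as usually run makes the arrays' distributions nearly equal. Of 27359 probe sets, 21784 had 1 gene symbol, 1620 several and 3955 none.

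For 19937 genes, limma 3.58.1 (R 4.3.3) was run on log2 intensities, as TMP195 minus vehicle, two-sided, with Benjamini-Hochberg adjustment and 95% moderated intervals. The fit was tested on simulated data with genes that varied independently and changes larger than any member's. That test does not show whether changes of the members' size could be found. Python 3.11.15, pandas 2.3.3, numpy 2.4.6 and matplotlib 3.10.9 did the rest. No gene was left out for low intensity. Hosts were genes containing the snoRNA in RefSeq GRCm38.p6. The gene table has no strand, so strand was not required, and Gas5, Snhg6 and Chd8 were chosen by hand where 2 genes contained the member.

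Named members were the 10 with the largest SD, those without overlap of groups, pairs in 1 host, the 3 with the highest mean and Snord118. Other members were named after their values were seen. The members and lists were chosen with earlier results of these data known. The host genes of some members, and 1 pair of members in 1 host, are not reported here.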

Additional observations from a re-analysis of the deposited data

How the results depend on the processing

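No member and no gene passed an adjusted p of 0.05 in limma under any alternative run, which were other priors, scalings, filters and probe set rules, array weights, leaving out each tumour, and, added after seeing the data, dropping vehicle tumour 1 together with TMP195 tumour 2. The replicate numbers did not pair the tumours (correlations of deviations -0.21, -0.06 and -0.10), and with a replicate block 0 members passed and the median difference was 0.27. The 2 members at least 1.5-fold apart without overlap became 0 with both tumours left out and 0 at a 2-fold limit, and 0 to 5 when 1 tumour was left out. Dropping vehicle tumour 1, 2 or 3 gave 1, 4 and 5, and dropping TMP195 tumour 1, 2 or 3 gave 3, 0 and 4. The members' median difference ran from 0.13 without vehicle tumour 1 to 0.42 without TMP195 tumour 3 and was 0.18 with array weights. Their median SD ran from 0.20 to 0.30, and was 0.14 with both left out.

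The sign of the difference held under every alternative for 18 members and turned for 13. With array weights it turned for Snord118 (0.10), Snord53 (-0.042), Snord8 (-0.0024), Snord85 (-0.12) and Snord96a (-0.0165). With both tumours left out it turned for Snord49b (-0.0273), Snord58b (-0.0319), Snord73a (-0.0762), Snord73b (-0.0298), Snord8 (-0.0017), Snord85 (-0.17), Snord95 (-0.0057) and Snord96a (-0.10). Leaving out 1 tumour gave ranges through 0 of -0.56 to 0.29 for Snord118, -0.0361 to 0.12 for Snord14e, -0.00088 to 0.24 for Snord37, -0.24 to 0.11 for Snord52, -0.064 to 0.16 for Snord53, -0.0223 to 0.328 for Snord73a, -0.0634 to 0.479 for Snord85, -0.0742 to 0.068 for Snord96a, -0.269 to 0.0255 for Fbl, -0.0883 to 0.0836 for Nop56 and -0.14 to 0.0036 for Snu13. The cause was not tested. Leaving vehicle tumour 2 out of the protein gene lists was also chosen after seeing the data.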
